A study of Mus musculus with 8 samples.

Results

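Nkain1 and 6 genes of the sodium pump complex (Atp1b1, Atp1b2, Atp1b3, Fxyd1, Fxyd5 and Fxyd6) were followed by RNA sequencing in single hearts of 4 female and 4 male mice. All 7 were found by gene name among the 17911 genes of the deposited table. Nkain1 was picked because it differs between the sexes, so its values are described and not tested. The other 6 belong by family. Both groups were C57Bl6/J wt (wild-type) mice, the labels name no treatment, and the series gives the age as 4 weeks in its design text and as 4 to 6 weeks in its protocol. Each library came from an individual heart, and the 8 libraries carry 1 batch label. The series title concerns DDX3X in the development of the female heart, and the comparison asks which transcripts differ between female and male hearts.

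The sodium pump, Na,K-ATPase, moves sodium out of the cell and potassium into it at the cost of ATP. A catalytic alpha subunit carries the ions, a glycosylated beta subunit is needed to fold it and bring it to the membrane, and a small FXYD protein tunes its affinity. In heart muscle the pump keeps sodium low enough for the sodium-calcium exchanger to remove calcium, and it is the target of digitalis drugs. NKAIN proteins are small membrane proteins named for interacting with the pump, and they are best known from the brain.

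Libraries held 51699331 to 66254288 assigned reads in female hearts and 54997897 to 75742388 in male hearts. Xist was at 14056 or above in each female heart and at 254 or below in each male heart, and Ddx3y was at 82.8 or below in each female heart and at 5715 or above in each male heart. All 7 cardiomyocyte markers (Myh6, Actc1, Tnnt2, Tnni3, Myl2, Ryr2 and Pln) were detected in all 8 hearts. Levels are normalized read counts, in which the reads of a gene are scaled by 1 size factor per heart. Means are given with the SD over 4 hearts of a sex, and fold changes are differences of log2(level + 1), female minus male.

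Nkain1 lies on the minus strand of chromosome 4, from 130531602 to 130574173 (mm10), and no other annotated gene overlaps it. The bases just before its farthest annotated start are shown because Nkain1 is the member whose level separates the sexes. They come from RefSeq (GRCm38.p6, minus strand, chr4:130574174-130574286), are written 5′ to 3′, and have the GC box in its reverse form, CCGCCC, in capitals.
Nkain1 upstream: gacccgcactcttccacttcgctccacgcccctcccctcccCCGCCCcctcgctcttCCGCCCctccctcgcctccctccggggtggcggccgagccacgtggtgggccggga
The RefSeq promoter window of 300 bases (250 before and 50 after the RefSeq start) runs beyond this stretch. GGGCGG or its reverse complement CCGCCC occurred 4 times in it, and 35.7% of the 32851 windows of that length held at least 1 match. The window held 44 CG dinucleotides, against a median of 7 over all windows, and more than 97.8% of them. On both strands, the estrogen receptor half-site AGGTCA and the androgen and glucocorticoid receptor half-site AGAACA had 0 matches in it. AGGTCA was present in 16.3% of all windows and AGAACA in 19.0%. The TATA box letters TATAAA also had 0 matches and were present in 13.6%. The window was 80% G or C, against a median of 52.7% over all windows. Shares over all windows are thus an unlike background for these words, and nothing is read from the matches.

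Nkain1 transcripts were less abundant in female hearts. Female replicates 1 to 4 had 386, 379, 362 and 364 normalized reads, and male replicates 1, 3, 4 and 5 had 549, 579, 630 and 619. Every female heart lay below every male heart, with a gap of 163 normalized reads between the nearest pair. The means were 373 ± 11.6 in female hearts and 594 ± 37.2 in male hearts, with a difference of -37.3% and a log2 difference of -0.67. These values rest on 299 to 398 reads per female heart and 513 to 739 per male heart. Counting alone would give a coefficient of variation of 5.29% in females and 3.98% in males, and the hearts varied by 3.12% in females and 6.26% in males. Over all genes the limma fit called 1.16% at an adjusted p under 0.05 (0.475% higher and 0.687% lower in females), and 1.5% passed the thresholds given by the labels, a log2 fold change over 0.6 and an unadjusted p under 0.05. The sexes did not overlap for 9.35% of genes: 4.52% lay higher and 4.82% lay lower in females. Nkain1 was chosen from that contrast, so nothing is read from its place among them. Leaving out any 1 heart kept the log2 difference between -0.71 and -0.64.

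**Figure D1:**
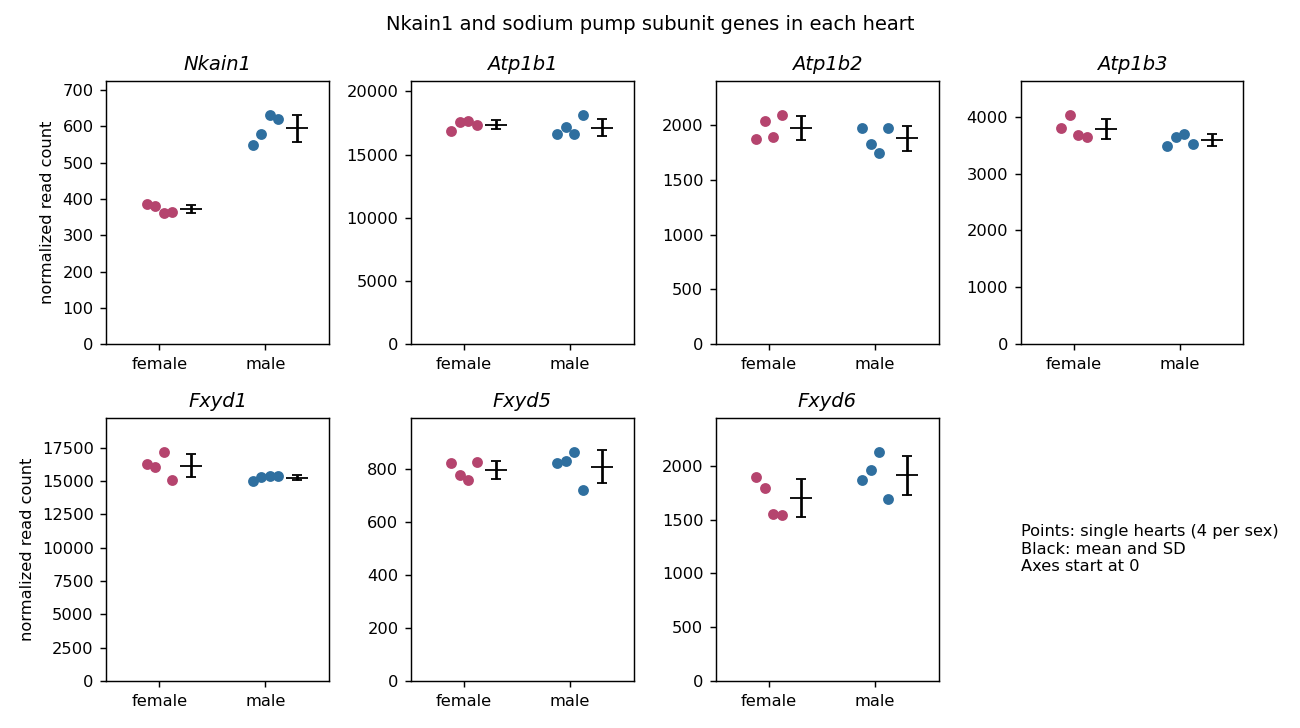
Normalized read count (vertical axes, starting at 0) of Nkain1 and the 6 other members in each of 4 female and 4 male hearts, with mean and SD in black. Nkain1 sits between 362 and 386 in females and between 549 and 630 in males, while the sexes overlap for each of the other 6 genes.

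The sexes did not overlap in 1 cell type list, that of macrophages, where 9.35% of all genes did not overlap. The summed level of 6 macrophage markers was 9783 to 11742 in female hearts and 12468 to 15046 in male hearts. Csf1r, C1qa and C1qb passed the test as lower in females, where limma called 1.16% of all genes in either direction. Cd68, Adgre1 and Cd163 did not pass, all 6 had negative fold changes, and none was at 0 in any heart. Whether the lower macrophage markers have a part in the Nkain1 difference was not tested. Summed levels of the other 10 cell type lists (cardiomyocyte, atrial, endothelial, fibroblast, T cell, smooth muscle and pericyte, Schwann and nerve, fat, epicardial and mesothelial, red cell) overlapped between the sexes. Among single markers of these 10 lists, limma called Lum of the fibroblast list (adjusted p = 0.00285) and Ryr2 of the cardiomyocyte list (adjusted p = 0.0341). Both lay higher in every female heart than in every male heart, with log2 differences of 0.30 for Lum and 0.20 for Ryr2. No other marker of these lists was called. In whole-heart RNA, fewer cells of a type and less RNA per cell cannot be told apart.

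Nkain4 and Nkain2, the measured relatives of Nkain1, overlapped between the sexes, where 9.35% of all genes did not. Nkain1 itself was picked for its difference. Nkain4 had 285, 209, 210 and 175 normalized reads in female hearts and 268, 207, 291 and 170 in male hearts. Its sexes overlapped, with means of 220 ± 46.4 in female and 234 ± 55.3 in male hearts. The log2 fold change was -0.08 and the adjusted p from limma 0.883. The antisense gene Gm14341 faces 55 of its exon bases. Nkain2 was close to the detection limit, with 8 to 17 reads per female heart and 5 to 21 per male heart, and did not pass (limma adjusted p = 0.691). Nkain3 was not analysed here. Per kilobase of exon, the scale on which different genes can be compared, Nkain1 made up 59.5% ± 4.31 of the NKAIN sum in female hearts and 68.7% ± 5.55 in male hearts. These shares overlapped, at 53.7% to 64.0% in females and 63.6% to 75.8% in males. They carry the difference for which Nkain1 was picked, so they are not a separate result.

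None of 9 measured genes described beside Nkain1 on the chromosome had a log2 fold change of its size. Nkain1 was picked for its difference and the 9 genes were chosen after their values were seen, so nothing is read from this comparison. At lower coordinates the nearest is Snrnp40, a spliceosome component, 142 kb away (log2 fold change -0.04, adjusted p from limma 0.78). Of these 9 genes, Fabp3, the heart fatty acid binding protein, passed the test: it fell by 0.18 on the log2 scale in females (limma adjusted p = 0.0328). Fabp3 overlaps Zcchc17 on the other strand, and its call is 1 of the 208 over all genes, 1.16% of 17911. Laptm5, a lysosomal gene of blood cells, had -0.36 and did not pass (limma adjusted p = 0.129).

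**Figure D2:**
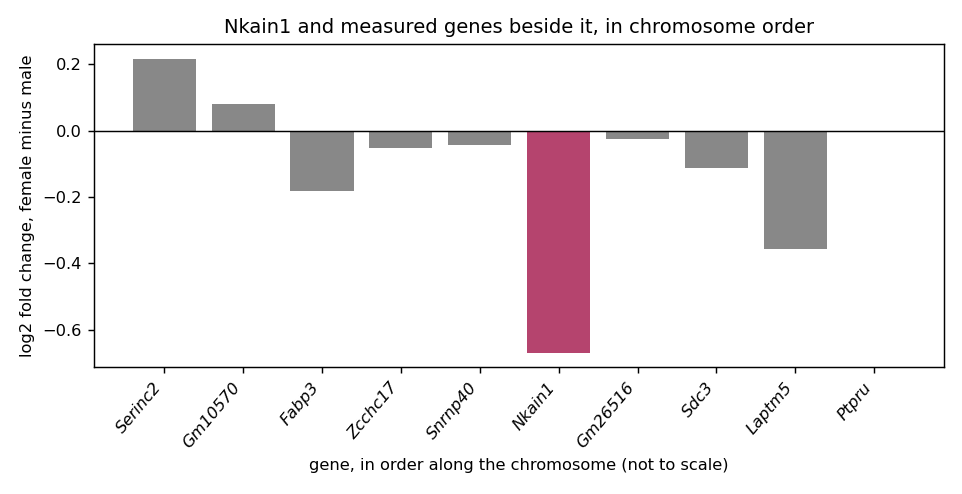
Log2 fold change, female minus male (vertical axis), of Nkain1 and 9 measured genes beside it, in their order along the chromosome. The bar of Nkain1, which was picked for its difference, reaches -0.67, and the neighbours lie between -0.36 (Laptm5) and 0.22 (Serinc2).

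Several genes followed the level of Nkain1 over the 8 hearts. Among 12778 named genes with a mean of at least 50 normalized reads, the highest Pearson correlations with Nkain1 on the log2 scale were those of C1qtnf9 (r = 0.983), Plcg2 (0.982), Nup50 (0.979), Ace (0.978) and C7 (0.978). C1qtnf9 encodes a secreted C1q-family protein, Plcg2 a phospholipase of immune signalling, Nup50 a nuclear pore protein, Ace the angiotensin-converting enzyme and C7 a complement component. All 5 were lower in every female heart than in every male heart, as Nkain1 is and as 4.82% of all genes are. Nkain1 was picked for separating the sexes, so this ranking favours genes that separate them, and nothing is read from their separation. An r of 0.9 was reached by 149 genes. The means of Ace were 2973 ± 205 in female and 4628 ± 355 in male hearts, and those of C7 were 259 ± 41.2 in female and 1203 ± 169 in male hearts. After each gene was centred on the mean of its sex, different genes led: Cygb (r = 0.989), Plec (0.980), Ncstn (0.975), Oplah (0.951) and Naa60 (0.942), and 22 genes reached an r of 0.9. These correlations are descriptions over 8 libraries that share their scaling.

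None of the 6 pump subunit genes passed the test between the sexes. Their limma adjusted p-values ran from 0.33 (Fxyd1) to 0.916 (Fxyd5), and 0 of 6 had an unadjusted p under 0.05, against 16% of all genes. Over all genes limma called 1.16%. With edgeR, DESeq2 and limma-voom on the recovered reads, 0 of 6 were called as well. Of all 17911 genes edgeR called 0.927% and limma-voom 0.983%, and DESeq2 called 4.9% of the 14088 genes to which it gave an adjusted p. Across the 6 the median log2 fold change was 0.04, with 4 positive and 2 negative, and the median over all genes was 0.00.

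Among the beta subunit genes, Atp1b1 (chromosome 1, 164437109 to 164458355, minus strand) encodes the main beta subunit of heart, the form that NKAIN1 was found to bind. Its level was 16869, 17554, 17649 and 17334 normalized reads in female hearts and 16656, 17161, 16595 and 18097 in male hearts. The highest and the lowest heart were both male, so the female range lay inside the male one. Means were 17351 ± 348 in female and 17127 ± 695 in male hearts (log2 fold change 0.02, SE 0.03, adjusted p from limma 0.837). The 95% interval of the difference ran from -3.73% to 6.70%. Its exons share 575 bases with those of Nme7 on the opposite strand. Whether counting used strand is unknown here, so reads of that stretch could come from either gene.

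Atp1b2, first described as an adhesion molecule on glia, lies on chromosome 11 (69599736 to 69605942, minus strand). It had 1871, 2039, 1895 and 2091 normalized reads in female hearts and 1979, 1832, 1746 and 1975 in male hearts. Female replicates 2 and 4 were above all males, and the other 2 lay among them (log2 fold change 0.07, SE 0.05, adjusted p from limma 0.567; 95% interval -3.00% to 13.3%). Atp1b3, a broadly expressed beta subunit, lies on chromosome 9 (96332655 to 96364442, minus strand). It had 3795, 4025, 3681 and 3646 in female hearts and 3493, 3651, 3697 and 3514 in male hearts. Female replicates 1 and 2 were above all males (log2 fold change 0.08, SE 0.04, adjusted p from limma 0.347; 95% interval -0.386% to 11.7%). Atp1b4, an X-linked gene whose protein in placental mammals sits in the nuclear envelope of muscle and is no longer a pump subunit, was low. It had 1 to 43 reads per female heart and 14 to 39 per male heart (limma adjusted p = 0.54).

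Among the FXYD genes, Fxyd1 encodes phospholemman, the pump regulator of heart muscle whose inhibition is relieved when it is phosphorylated. The gene lies on chromosome 7 (31051678 to 31057199, minus strand). Female hearts had 16274, 16052, 17170 and 15049 normalized reads, and male hearts had 15000, 15301, 15350 and 15369. Female replicates 1 to 3 lay above the male range and female replicate 4 lay inside it. Means were 16136 ± 871 in female and 15255 ± 172 in male hearts (log2 fold change 0.08, SE 0.04, adjusted p from limma 0.33). The 95% interval of the difference ran from -0.197% to 11.9%.

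Fxyd5 encodes dysadherin, a family member of epithelia and other non-muscle cells that also loosens cell adhesion. It sits in the same cluster on chromosome 7 (31032722 to 31042481, minus strand), where Fxyd5 and Fxyd7 are 31 bases apart and Fxyd7 and Fxyd1 are 210 bases apart. Fxyd5 had 825, 778, 760 and 827 normalized reads in female hearts and 825, 830, 865 and 720 in male hearts. The female values lay inside the male range (798 ± 33.8 in female and 810 ± 62.3 in male hearts; log2 fold change -0.02, SE 0.06, adjusted p from limma 0.916). The 95% interval was -10.2% to 8.30%.

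Fxyd6, phosphohippolin, is best known from brain and inner ear. It lies on chromosome 9 (45370185 to 45396159, plus strand), 3509 bases before Fxyd2. Female hearts had 1897, 1795, 1556 and 1543 normalized reads, and male hearts had 1871, 1965, 2129 and 1695. Female replicates 3 and 4 were below all males, and the other 2 lay within the male range. Means were 1698 ± 176 in female and 1915 ± 181 in male hearts (log2 fold change -0.17, SE 0.08, adjusted p from limma 0.348). Its interval, -22.2% to 0.945%, was the widest of the 6, and its hearts varied most within a sex (coefficient of variation 10.4% in females and 9.46% in males). In the authors' deposited table the adjusted p of Fxyd6 is 0.26 and its unadjusted p is 0.0397, under 0.05, where the unadjusted p from limma was 0.0655.

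The other FXYD genes were low. Fxyd2, the gamma subunit of kidney, had 79.4 ± 16.6 normalized reads in female and 96.4 ± 2.75 in male hearts (log2 fold change -0.30, adjusted p from limma 0.377), and without female replicate 3 the log2 fold change was -0.15. Fxyd7, a brain form, had 65.4 ± 10.3 in female and 56.9 ± 7.92 in male hearts (limma adjusted p = 0.614). Fxyd3 had 47.5 ± 17.2 in female and 43.8 ± 9.33 in male hearts (limma adjusted p = 0.949), but 2059 of its exon bases overlap Lgi4, a Schwann cell gene, on the opposite strand. Fxyd4 was not analysed here. Of 6 measured FXYD genes 0 passed in limma, as did 0 of 4 beta subunit genes, where 1.16% of all genes were called. In limma 0 of these had an unadjusted p under 0.05, against 16% of all genes. The tools edgeR, DESeq2 and limma-voom also called 0, with no adjusted p from DESeq2 for Fxyd3 and Atp1b4.

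**Figure D3:**
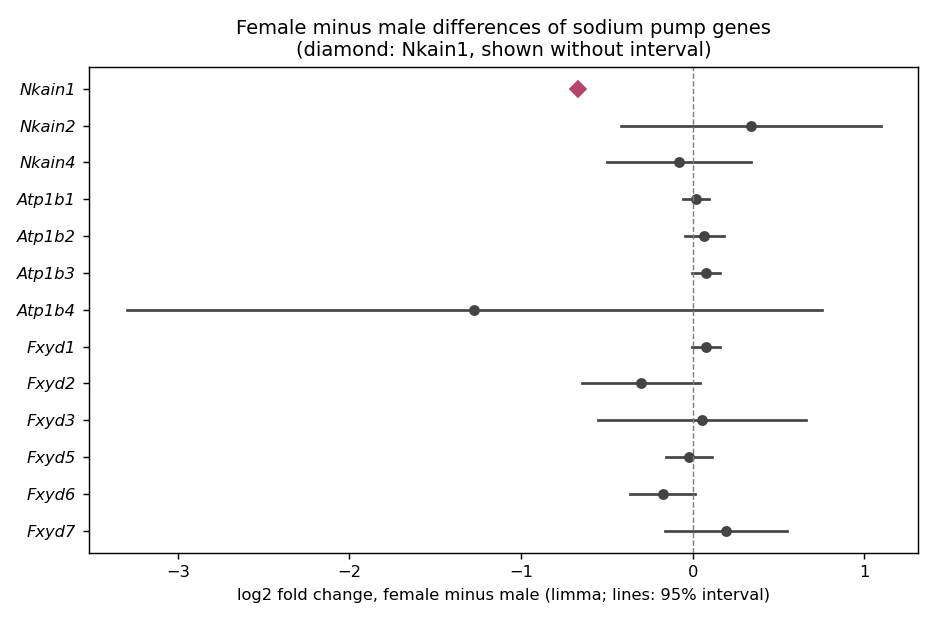
Log2 fold change, female minus male (horizontal axis), of each measured NKAIN, beta and FXYD gene, with 95% intervals from limma as lines; Nkain1 is a diamond without an interval because it was picked for this difference. Nkain1 is at -0.67, the 6 other members lie between -0.17 (Fxyd6) and 0.08 (Fxyd1), and the longest line is that of Atp1b4, which rests on 1 to 43 reads per heart.

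Levels of different genes are compared per kilobase, dividing normalized reads by the length of all exons of the gene. Fxyd1 was the most abundant member, at 7382 ± 398 normalized reads per kilobase in female and 6978 ± 78.7 in male hearts. Atp1b1 followed with 5632 ± 113 in females and 5559 ± 225 in males, and Atp1b3 with 1585 ± 71.7 in females and 1502 ± 42.0 in males. These 3 kept their order in every heart. Next came Atp1b2 at 483 ± 26.4 in females and 461 ± 27.9 in males, and Fxyd6 at 413 ± 42.9 in females and 466 ± 44.1 in males, whose ranges overlapped in both sexes. Nkain1, at 261 ± 8.16 in females and 417 ± 26.1 in males, lay below Fxyd6 without overlap in females and overlapped with it in males. Fxyd5 was lowest, at 190 ± 8.07 in females and 193 ± 14.9 in males. With the longest transcript as length, Fxyd1 averaged 24156 in females and 22837 in males, against 6725 in females and 6639 in males for Atp1b1. Fxyd6 then lay above Atp1b2 without overlap, at 653 to 803 against 499 to 558 in females and at 718 to 901 against 466 to 528 in males. On that length Nkain1 in males, at 457 to 524, overlapped with Atp1b2 and lay below Fxyd6.

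**Figure D4:**
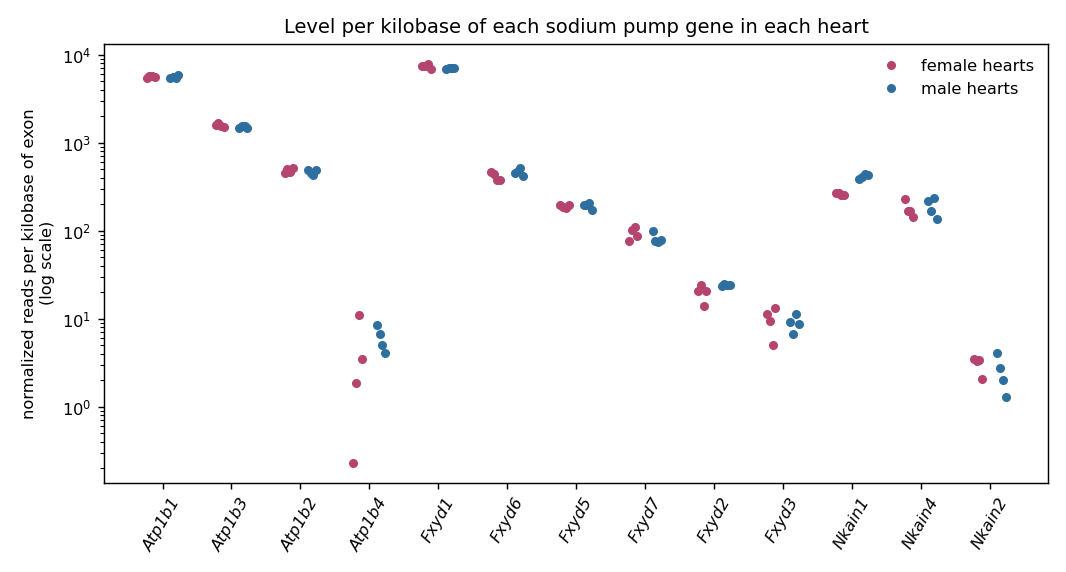
Normalized reads per kilobase of exon (vertical axis, log scale) of each measured beta, FXYD and NKAIN gene in 4 female and 4 male hearts, 1 point per heart. Fxyd1 and Atp1b1 lie highest, Nkain1 lies at 254 to 271 in females and at 385 to 442 in males, and Nkain2, Atp1b4 and Fxyd3 lie lowest.

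Each of the 6 pump subunit genes held a share of its family sum that overlapped between the sexes. Atp1b1 made up 73.1% ± 0.735 of the beta sum in female and 73.8% ± 0.821 in male hearts. Atp1b3 made up 19.9% to 21.4% of it in females and 18.8% to 21.0% in males, and Atp1b2 made up 6.27% ± 0.306 in females and 6.12% ± 0.342 in males. Fxyd1 made up 91.0% ± 0.615 of the FXYD sum in female and 90.0% ± 0.699 in male hearts. Fxyd6 was next, at 5.10% ± 0.525 in females and 6.01% ± 0.520 in males, and Fxyd5 held 2.35% ± 0.201 in females and 2.49% ± 0.181 in males. The FXYD shares depend on the length used, since the exons of Fxyd1 cover 2186 bases in all and its longest transcript is 668 bases. With the longest transcript, Fxyd6 held 2.84% in females and 3.37% in males, and Fxyd5 held 1.05% in females and 1.12% in males.

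Over the 8 hearts, 1 of the 15 pairs among the 6 pump subunit genes was related. Hearts with more Atp1b1 had less Fxyd5, with a Pearson r of -0.912 on the log2 scale (two-sided exact permutation p = 0.00154, adjusted p = 0.0231 over 15 pairs). Spearman's rho was -0.786 (exact permutation p = 0.0279, adjusted p = 0.209), and male replicate 5 was at 1 end with the most Atp1b1 and the least Fxyd5. Without male replicates 4 and 5, the hearts farthest from the median of Atp1b1, r was -0.764, and with each gene centred on its sex it was -0.916. The adjusted p passed without female replicate 4 or male replicate 1, where 1 pair passed, and without female replicate 3, where 2 pairs did. Without any of the other 5 hearts (female replicates 1 and 2, male replicates 3, 4 and 5), 0 pairs passed. Female replicate 4 and male replicate 5 also held the fewest reads (51699331 and 54997897), and the part of depth in this relation was not tested. The next pairs were Atp1b2 with Fxyd6 (r = -0.712) and Atp1b1 with Fxyd6 (r = -0.693), both with an adjusted exact permutation p = 0.293. Nkain1 was left out of these pairs, since its hearts fall into a cluster of 4 for each sex.

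**Figure D5:**
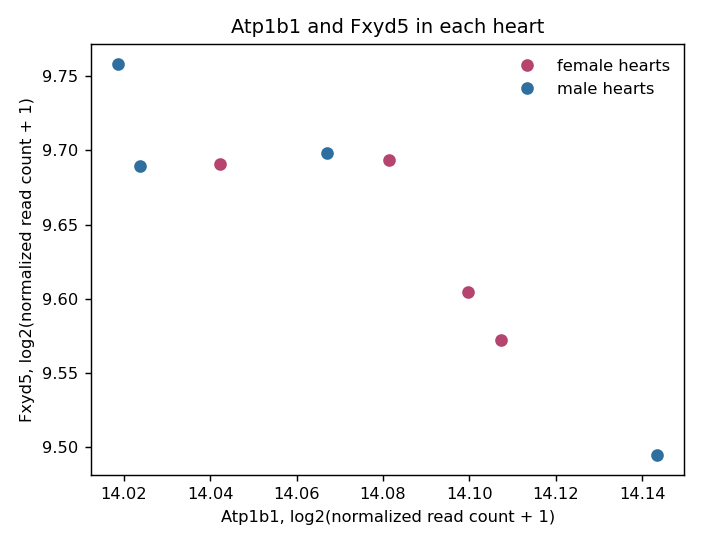
Fxyd5 (vertical axis) against Atp1b1 (horizontal axis), both as log2 of the normalized read count plus 1, 1 point per heart, with female and male hearts in different colours. Male replicate 5 lies at the lower right end.

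Of 12 sodium-coupled exchangers and cotransporters, Slc8a1 rose and 11 did not pass, where 1.16% of all genes were called (list median log2 fold change 0.01, against 0.00 over all genes). An unadjusted p under 0.05 was reached by 3 of them (Slc8a1, Slc8a2 and Slc4a4), against 16% of all genes. Slc8a1 encodes the exchanger that uses the sodium gradient made by the pump to remove calcium. It had 11349, 11972, 12061 and 11384 normalized reads in female hearts and 9814, 9761, 9735 and 10760 in male hearts, without overlap (log2 fold change 0.22, SE 0.04, adjusted p from limma 0.02). Its call ended when any of female replicates 2 and 3 or male replicates 1, 3 and 4 was left out (limma adjusted p = 0.0534 to 0.0823). It also ended with the library code as a block (limma adjusted p = 0.29), without the trend and robust options of limma (adjusted p = 0.149) and with the fold threshold of the labels. Slc8a2, a second sodium-calcium exchanger known from brain, had a larger log2 fold change, 0.32, from 92.6 to 117 normalized reads in female and 67.6 to 94.7 in male hearts, which overlapped (limma adjusted p = 0.3). The bicarbonate cotransporter Slc4a4 had a log2 fold change of 0.14 (limma adjusted p = 0.3).

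Of 13 genes for enzymes that phosphorylate, dephosphorylate or palmitoylate phospholemman, 0 passed in limma, 0 had an unadjusted p under 0.05, and edgeR, DESeq2 and limma-voom called 0. Over all genes limma called 1.16%, and 16% had an unadjusted p under 0.05, so few calls are due in a list of this size. Their fold changes lay between -0.28 (Prkar2b) and 0.05 (Prkar2a), with a median of -0.01. Prkaca, the catalytic subunit of protein kinase A, had 0.01 and Prkca, protein kinase C alpha, had -0.02. Of 14 genes for anchoring and turnover of the pump, 0 passed in limma, 2 had an unadjusted p under 0.05 (Ank3 and Cav1, against 16% of all genes), and the other 3 tools called 0. Ank2, the ankyrin that holds pump and exchanger together in heart muscle, averaged 10633 ± 365 normalized reads in female and 10661 ± 632 in male hearts. Ank3 had a log2 fold change of 0.10 (limma adjusted p = 0.268) and Cav1 had -0.10 (limma adjusted p = 0.272). Atp4a, Atp4b and Atp12a, the related proton pumps, were not analysed here.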

How the data were processed

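RNA was sequenced from single hearts of 4 female and 4 male mice. Per the labels' protocols, Trizol lysates of individual hearts went through a small RNA kit, although the molecule field names total RNA. The deposited table gives 1 signal column per heart, which from the values are read counts divided by 1 size factor per heart (100% of values whole multiples of 1 read, tolerance 0.001 reads), plus the authors' deposited log2 fold changes and p-values. The build was mm10, per the submitters' processing notes; the aligner, the counter and its strand setting are not stated in these sources. Values are also called normalized read counts here, and the deposited table holds no gene under 81 reads over the 8 hearts.

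Female and male hearts were compared with limma 3.58.1 (trend and robust, R 4.3.3) on log2(value + 1) over the whole table, with Benjamini-Hochberg adjustment; genes needed a value of at least 1 in 4 hearts. Fold changes are on this scale, and those of the lowest genes also depend on the tool (Atp1b4 was at -1.27 in limma and -0.60 in edgeR). Alternatives were edgeR 4.0.16 (TMM or RLE; 166 genes called with TMM), DESeq2 1.42.0 (690) and limma-voom (176) on recovered reads, other pseudocounts and filters, the labels' thresholds, blocks and each heart left out. Total reads as a covariate was chosen after seeing the data. The fits were tested on simulated data. Positions and exon lengths came from GENCODE vM21 (17864 of 17911 genes matched), and 6 of the 7 members had a RefSeq promoter. The p-values set the difference between the sexes against the spread between these hearts and take the hearts as independent. Nothing says whether the hearts came from separate litters, so this could not be checked.

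Members and lists were chosen with earlier results of these data known. All members, all measured beta, FXYD and NKAIN genes and every called gene of the other lists were named by rule, with the 5 genes most like Nkain1. Other genes, the neighbours of Nkain1 and the non-called genes of the other lists were chosen after their values were seen. Some genes of the lists and of the neighbourhood are not reported here. Hearts of the same number were not treated as pairs, so the fits have no block.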

Additional observations from a re-analysis of the deposited data

Results flagged for a closer look

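In 4 of 32 sets of 4 hearts, 1 heart stood far from the other 3, where chance gives about 1 in 20. Fxyd7 was high in male replicate 1, at 68.6 normalized reads, against 52.0 to 54.3 in the other males. Nkain2 was low in female replicate 4, at 9.74, against 15.5 to 16.5. Slc8a1 was high in male replicate 5, at 10760, against 9735 to 9814. The share of Fxyd1 in the FXYD sum was 91.9% in female replicate 3, against 90.6% to 90.8%.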

How the results depend on the processing

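The count of 0 among the 6 pump subunit genes was the same under all 21 alternatives. The log2 difference of Nkain1 ran from -0.71 to -0.64 under 20. The 1 called exchanger gene, Slc8a1, gave 0 calls with limma without its trend and robust options, with the library code block and with the labels' thresholds, and 0 to 1 when single hearts were left out. Related pairs numbered 0 with Spearman's rho and 0 to 2 without single hearts. With the longest transcript as length, the Fxyd1 share was 95.5% in females and 94.9% in males; the length itself sets this. The labels link hearts of different sex by a number only, and its meaning is unknown here. Deviations of same-numbered hearts had r = 0.217, -0.0624 and -0.0886 by title number and 0.217, -0.0624 and 0.179 by library code. With a replicate block the calls over all genes were 148 by title number and 28 by library code, against 208, on 6 hearts each; Nkain1 was then -0.66 and -0.65, and 1 of 3 females by title number and 2 of 3 by library code correlated best with the male of that number. Calls over all genes were 35 without the trend and robust options, 690 with DESeq2 and 77 to 516 without single hearts. Signs turned for uncalled values: Atp1b1 with the code block (-0.0011) and total reads as a covariate (-0.0060); Fxyd5 without female 3 or male 4 (0.0030, 0.013; all single hearts -0.075 to 0.013), with the code block (0.025) and the covariate (0.024); Nkain4 without female 4 or male 4 (0.020, 0.034; -0.223 to 0.034), with the code block (0.049) and the covariate (0.128); and Fxyd3 without female 1, female 4 or male 3 (-0.045, -0.119, -0.0745; -0.119 to 0.336) and with the covariate (-0.0074). The cause was not tested. Depth limits Atp1b4, Nkain2, Fxyd2, Fxyd3 and Fxyd7, which had 116 reads or fewer in every heart.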
